A study of Mus musculus with 79 samples.

Results

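The genes described here serve transport across the proximal tubule of the mouse kidney, together with the potassium channel gene Kcnk5 and the dopamine synthesis gene Ddc. They were named by symbol, with earlier results of these data known: Aqp1, Slc34a1, Slc5a2, Slc22a6, Slc22a8, Slc9a3, Lrp2, Cubn, Kcnk5 and Ddc. Each was looked up in the first column of the kidney count table. Rows were found for 9 of the 10, among 12921 genes listed, and all 9 passed the filter on low counts that left 10878 genes. Slc9a3, the sodium/proton exchanger of the brush border, had no row under that name or a RefSeq synonym in any of the 5 count tables and was not analysed here.

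Kidney RNA came from 16 wild-type C57BL/6 mice aged 3 months under a light-dark (LD) cycle, 12 h each. For 4 h they breathed 6% oxygen or, as control, 21% oxygen from a cylinder (called air below). Exposure fell in the light phase at zeitgeber time (ZT) 4-8 or in the dark phase at ZT16-20. Each of the 4 groups had 4 mice and so 4 kidney libraries, lettered A to D. The series holds 79 libraries in 20 groups. The others are lung and liver of the same LD mice, and liver of wild-type (WT) C57BL/6 mice and of mice labelled Per1,2 double knockout (KO) after 2 days in constant darkness, exposed at circadian time (CT) 4-8 or 16-20, with 3 libraries in the KO group at CT16-20 in 6% oxygen and 4 in every other group. The study asked how the response to low oxygen depends on tissue and time of day.

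The proximal tubule takes back most of the filtered water, sodium, phosphate, glucose and protein and secretes organic anions. Transporters in its apical brush border bring solutes in, the endocytic receptors megalin (Lrp2) and cubilin (Cubn) take up filtered protein, and sodium pumps and potassium channels of the basolateral side keep the gradients that drive this. Its cells also turn filtered L-DOPA into dopamine with the decarboxylase encoded by Ddc, and that dopamine acts locally to lower sodium reabsorption.

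Kidney libraries held 2.15 to 3.91 M counts. Libraries at 6% oxygen held fewer counts than air libraries, 2.68 ± 0.39 against 3.42 ± 0.39 M at ZT4-8 (SD, n = 4 each, exact two-sided permutation p = 0.0571) and 2.96 ± 0.25 against 3.56 ± 0.42 M at ZT16-20 (exact p = 0.0857, adjusted p = 0.0857 for each time). All 8 proximal tubule markers of a separate list (Miox, Gatm, Fbp1, Gpx3, Ass1, Lap3, Acsm2 and Kap) were listed, and their summed level ran from 23963 to 44872 CPM (the count relative to the library total after TMM scaling, the unit of all levels here). The lowest sums were 29883 in library B at ZT4-8 in 6% oxygen and 23963 in library D at ZT16-20 in 6% oxygen. At ZT4-8 the sum ran from 29883 to 42481 CPM at 6% oxygen (median 37142.5) and from 38786 to 44872 in air (median 42742). Of these 8 markers 0 were called at ZT4-8 by edgeR, and their median log2 fold change was -0.03. The part of this lower sum in the responses below was not tested. Markers of lung summed to at most 48.1 CPM and those of liver to 184 to 702. In the air group at ZT4-8, libraries B and D stood apart from A and C in several of the genes described here, with lower Ddc and Cubn and higher Aqp1, Slc34a1 and Slc5a2. Calls in kidney that rest on those libraries are given with and without them, except those of cell type markers. Because B and D were picked by these values, leaving them out had to shrink the ZT4-8 rise of Ddc and fall of Aqp1. It also left fewer air libraries to compare. In bulk tissue, fewer cells of a type and less RNA per cell cannot be told apart.

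In the light phase, 6% oxygen lowered Kcnk5, Aqp1 and Lrp2 and raised Ddc. In the dark phase, Kcnk5 moved the other way and rose, Ddc fell, Lrp2 fell again and Aqp1 was not called. Called genes, the only ones said to rise or fall, had an adjusted p under 0.05 in edgeR's quasi-likelihood test (Benjamini-Hochberg over all genes tested). Of the 9 genes measured, 1 rose and 3 fell at ZT4-8, where 5.28% of all genes were called (2.79% higher, 2.49% lower). At ZT16-20 1 rose and 2 fell, where 6.9% of all genes were called (3.44% higher, 3.47% lower). Their median log2 fold change was -0.08 at ZT4-8 and -0.07 at ZT16-20, beside a median of 0.00 over all genes tested at both times. Markers of other cell types moved as well. At ZT4-8 the intercalated cell genes Slc4a1 (0.79) and Slc26a4 (0.63) and the fibroblast gene Col1a1 (0.74) rose. The 4 intercalated markers, 2 of them called, had a median log2 fold change of -0.02. Their summed level was 126 to 144 CPM against 82.8 to 115 in air, with 84.5 and 82.8 in air libraries B and D. The 5 fibroblast and mural markers, 1 of them called, had a median of 0.31. Their summed level was 210.2 to 276 CPM against 179 to 205 in air. The marker calls at ZT4-8 were not checked without air libraries B and D. At ZT16-20 Aqp2 rose and Gatm, Calb1 and Foxi1, of the proximal tubule, distal convoluted tubule and intercalated cells, fell. Their part in the responses below was not tested.

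**Figure D1:**
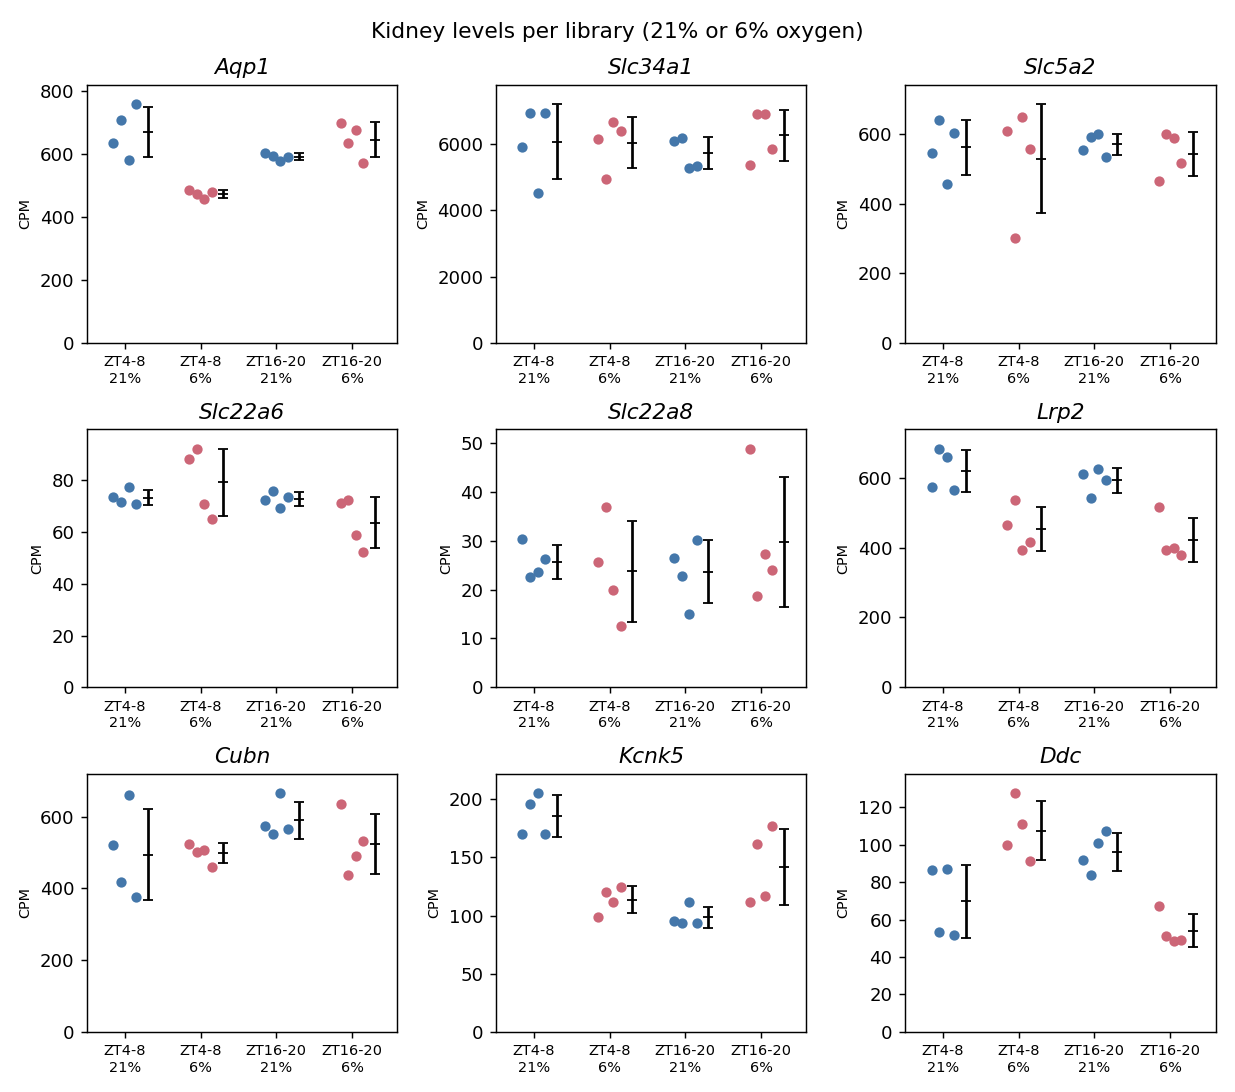
Levels of the 9 genes in each of the 16 kidney libraries, in CPM on linear axes that start at 0, by time (ZT4-8, ZT16-20) and oxygen level (21% in blue, 6% in red). Each dot is 1 library, in the order A to D, and the black bar is the mean with its SD (n = 4). Kcnk5 was highest in air at ZT4-8, with a mean of 186 CPM, and lowest in air at ZT16-20, with 98.6.

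Kcnk5 encodes TASK-2, a background potassium channel opened by alkaline pH and tied to bicarbonate transport in the proximal tubule (mm10, chromosome 14, 20140057 to 20181809, minus strand). In air at ZT4-8 the 4 libraries stood at 170.5, 196, 205 and 170.5 CPM (186 ± 17.8, SD, n = 4). At 6% oxygen they stood at 98.9, 120, 111 and 124 CPM (114 ± 11.3). Every library at 6% oxygen lay below every air library. The log2 fold change was -0.71 ± 0.14 (SE, adjusted p = 0.00361), and the call held with each kidney library left out in turn (adjusted p 0.00213 to 0.0235). It also held without the ZT4-8 air libraries B and D together, at -0.73 with an adjusted p of 0.0154.

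In the dark phase the air level of Kcnk5 was itself low, with 95.3, 93.6, 112 and 93.4 CPM (98.6 ± 8.91, n = 4). At 6% oxygen the libraries stood at 112.0, 162, 117 and 177 CPM (142 ± 32.4). Libraries B and D were high, A and C lay close to the highest air library, and the lowest value at 6% oxygen barely passed it, 111.987 against 111.858 CPM. Library D at 6% oxygen had a proximal tubule marker sum of 23963 CPM, against 39703 to 43139 in the rest of its group. Its sum of leukocyte markers was 565 CPM, against 259 to 316. The part of this make-up in its Kcnk5 level was not tested. Kcnk5 rose by 0.52 ± 0.14 (adjusted p = 0.0257). That call was lost without air library A (adjusted p = 0.0669), B (0.0699) or D (0.0783), or without 6% library B (0.0963) or D (0.11), with log2 fold changes of 0.40 to 0.51 in those 5 fits. Beside this rise, the summed level of 5 markers of collecting duct principal cells ran from 1199 to 1505 CPM at 6% oxygen and from 838 to 1062 in air at ZT16-20. Of these 5 markers 1 was called, Aqp2, which rose, and their median log2 fold change was 0.13. At ZT4-8 the same sum ran from 862 to 1100 CPM at 6% oxygen and from 971 to 1025 in air. The part of these cells in the level of Kcnk5 was not tested.

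The response of Kcnk5 thus differed between the times. The log2 fold change at ZT16-20 minus that at ZT4-8 was 1.23 ± 0.20 (edgeR quasi-likelihood, adjusted p = 0.00599), the seventh smallest p of 10878 genes, in a comparison that called 0.368% of all genes. It stayed between 1.11 and 1.33 with each of the 16 kidney libraries left out, with adjusted p from 0.00152 to 0.0185. Without the ZT4-8 air libraries B and D together it was 1.25 (adjusted p = 0.0101). In air alone, Kcnk5 was lower at ZT16-20 than at ZT4-8, with a log2 difference of -0.91 ± 0.14 (adjusted p = 0.00101), the 21st smallest p, where 1.09% of all genes were called and Kcnk5 was the 1 called gene of the 9. Without the ZT4-8 air libraries B and D this was -0.93 (adjusted p = 0.00611). At 6% oxygen the difference between the times was 0.32 ± 0.14 and was not called (adjusted p = 0.387). These comparisons share libraries and are not independent of one another.

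The 250 bases before the start site of Kcnk5 are shown because this gene had the most opposed responses together with Ddc. They come from RefSeq's GRCm38.p6 annotation, the mm10 assembly, and are the minus strand of chr14:20181783-20182032, read 5′ to 3′. The last 27 bases lie within the first exon of the GENCODE vM21 model. Lower case throughout means that none of the searched motifs was found in this window.
Kcnk5: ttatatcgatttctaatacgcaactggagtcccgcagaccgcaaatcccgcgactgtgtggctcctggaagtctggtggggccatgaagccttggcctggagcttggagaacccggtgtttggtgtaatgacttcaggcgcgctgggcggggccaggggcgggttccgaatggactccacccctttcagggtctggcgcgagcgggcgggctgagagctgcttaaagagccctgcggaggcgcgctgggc
Among the letters searched, on both strands, were CACGTG (the E-box bound by the clock activators, in 6.04% of 32536 promoter windows of the same length), ACGTG (the core of hypoxia response elements, which any CACGTG also holds, 16.7%), TTATGTAA and TTATGCAA (D-boxes, 0.811% and 0.701%), AGAACA (bound by the glucocorticoid receptor, 16.0%) and AGGTCA (bound by many nuclear receptors, 14.0%). A match is a description of letters, and its absence here says only that the letters are not in this window.

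Ddc encodes aromatic L-amino acid decarboxylase, the last enzyme of dopamine synthesis (mm10, chromosome 11, 11814101 to 11898144, minus strand). In air at ZT4-8 it stood at 86.8, 53.3, 86.8 and 51.9 CPM (69.7 ± 19.7, n = 4). At 6% oxygen it stood at 100.1, 128, 111 and 91.3 CPM (108 ± 15.7). The groups did not overlap, but air libraries A and C reached 86.8 and B and D were near 52. Ddc rose by 0.63 ± 0.17 (adjusted p = 0.0338). This call was lost without air library B (adjusted p = 0.124) or D (0.116), or without 6% library A (0.0561), B (0.088) or C (0.0812), and with only the ZT4-8 libraries fitted (0.131). Without B and D of the air group together the log2 fold change was 0.30 (adjusted p = 0.428).

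In the dark phase the order was reversed. Air libraries stood at 92.0, 84.0, 101 and 107 CPM (96.0 ± 10.1, n = 4) and libraries at 6% oxygen at 67.2, 51.4, 48.6 and 49.2 (54.1 ± 8.80). All 4 libraries at 6% oxygen lay below all 4 air libraries, with library A the highest of them. Ddc fell by 0.83 ± 0.17 on the log2 scale (adjusted p = 0.00418), and the call held with each kidney library left out (adjusted p 0.00169 to 0.0221).

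The difference in response between the times was -1.45 ± 0.24 for Ddc (edgeR quasi-likelihood, adjusted p = 0.00651), the tenth smallest p of 10878 genes. It ran from -1.58 to -1.34 with each library left out, and it was -1.13 (adjusted p = 0.0208) without the ZT4-8 air libraries B and D. At 6% oxygen, Ddc was lower at ZT16-20 than at ZT4-8, with a log2 difference of -0.99 ± 0.17 (adjusted p = 0.00911), where 0.496% of all genes were called, and this call was lost without the ZT16-20 6% library C (-0.94, adjusted p = 0.0512). In air the difference was 0.47 ± 0.17 and was not called (adjusted p = 0.221). An antisense gene, 1700042O10Rik, overlaps Ddc on the other strand. The strand setting of the counting is not given in the sources used here, so reads of the pair cannot be told apart.

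RefSeq gives Ddc a pair of start sites. The window before the upstream one, the minus strand of chr11:11898145-11898394 in GRCm38.p6, is shown for comparison with Kcnk5, with the only searched motif it holds in capitals, AGGTCA read on the opposite strand, at -73 to -68 from the start.
Ddc: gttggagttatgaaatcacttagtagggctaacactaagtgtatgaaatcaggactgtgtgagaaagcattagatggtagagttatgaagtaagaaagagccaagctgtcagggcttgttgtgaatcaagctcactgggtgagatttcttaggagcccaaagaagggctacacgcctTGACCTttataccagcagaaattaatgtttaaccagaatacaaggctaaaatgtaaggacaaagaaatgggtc
The window before the downstream start site held none of the searched motifs. Neither Kcnk5 nor Ddc held an E-box or a D-box in these windows.

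**Figure D2:**
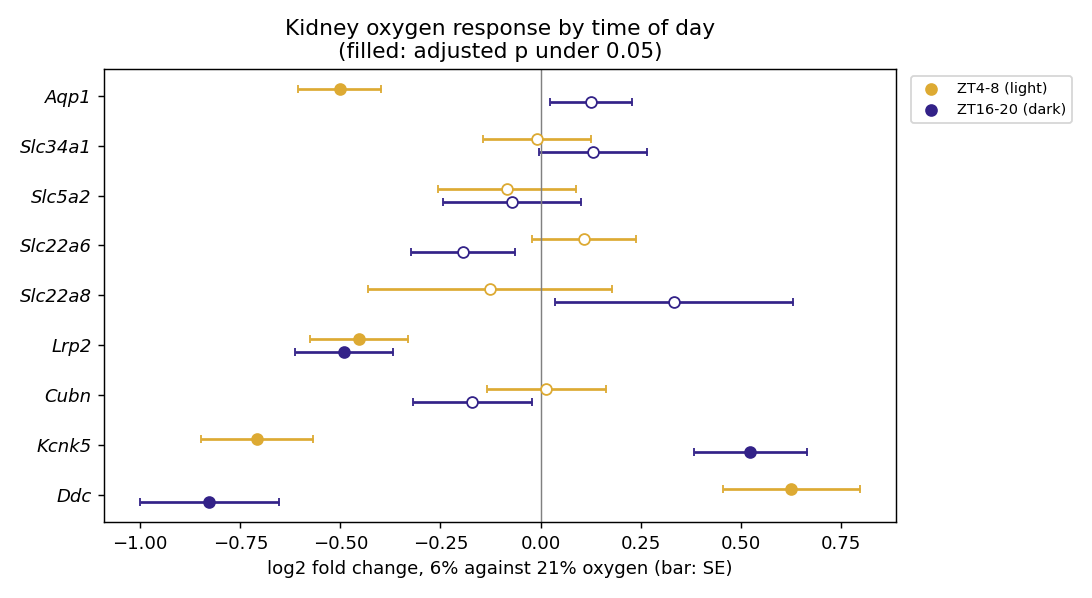
Log2 fold change of each gene at 6% against 21% oxygen in kidney (x axis, bar = SE), at ZT4-8 in yellow and at ZT16-20 in dark blue, from 4 libraries per group. Filled points have an adjusted p under 0.05. Kcnk5 lies at -0.71 and 0.52, Ddc at 0.63 and -0.83, and Lrp2 at -0.45 and -0.49.

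Aqp1 encodes the water channel of the proximal tubule and thin descending limb (mm10, chromosome 6, 55336432 to 55348555, plus strand), and is also made by endothelium. At ZT4-8 it stood at 635, 707, 581 and 760 CPM in air (671 ± 78.5, n = 4) and at 487, 472, 456 and 480 at 6% oxygen (474 ± 13.1). The libraries at 6% oxygen lay close together, all below the air group. Aqp1 fell by 0.50 ± 0.10 on the log2 scale (adjusted p = 0.00485), and without the air libraries B and D together the log2 fold change was -0.36, which was not called (adjusted p = 0.11). At ZT16-20 it stood at 605, 595, 578 and 592 CPM in air (593 ± 11.2) and at 700, 636, 678 and 573 at 6% oxygen (647 ± 55.9). Library D at 6% oxygen lay below the air group and the other 3 lay above it, and the log2 fold change of 0.13 ± 0.10 was not called (adjusted p = 0.523). The difference in response between the times was 0.63 ± 0.15 with an adjusted p of 0.0651 in edgeR, 0.00116 in DESeq2, and 0.016 in edgeR without the ZT4-8 air library C, and without air libraries B and D together it was 0.49 (adjusted p = 0.375). At 6% oxygen the difference between the times was 0.45 ± 0.10 (adjusted p = 0.0516), and it was called with RLE scaling (0.0493), with DESeq2 (0.000807), without the ZT4-8 air library C (0.0257) or D (0.0454) in edgeR, and without B and D together (0.024). Endothelial markers (6 of 6 listed) summed to 195 to 244 CPM at 6% oxygen and 204 to 259 in air at ZT4-8, with 0 of 6 called. Aqp1 is also made by red blood cells, of whose 5 markers 1 was listed, Alas2, the first enzyme of their heme synthesis, at 10.1 to 25.3 CPM at 6% oxygen and 29.6 to 52.7 in air at ZT4-8. Alas2 fell with Aqp1 (-1.06 ± 0.30, adjusted p = 0.0464), and the part of red blood cells in the level of Aqp1 was not tested.

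Lrp2 encodes megalin, the large receptor that takes up filtered protein, vitamin carriers and hormones (mm10, chromosome 2, 69424340 to 69586065, minus strand). It fell at both times and by a like amount. At ZT4-8 it stood at 574, 684, 660 and 565 CPM in air (620 ± 60.0, n = 4) and at 466, 537, 394 and 416 at 6% oxygen (453 ± 63.3). At ZT16-20 it stood at 611, 543, 624 and 593.5 CPM in air (593 ± 35.5) and at 515, 394, 398 and 379.8 at 6% oxygen (422 ± 62.7). The groups did not overlap at either time. The log2 fold changes were -0.45 ± 0.12 (adjusted p = 0.0319) at ZT4-8 and -0.49 ± 0.12 (adjusted p = 0.0161) at ZT16-20, and their difference was -0.04 ± 0.17 (adjusted p = 0.962).

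Both calls of Lrp2 were close to the threshold. At ZT4-8 the call was lost without air library B (adjusted p = 0.107) or 6% library A (0.0634), C (0.116) or D (0.0997), without air libraries B and D together (-0.45, adjusted p = 0.11), and with only the ZT4-8 libraries fitted (adjusted p = 0.102). At ZT16-20 it was lost without 6% library B (0.0592), C (0.0584) or D (0.0614). With each of the 16 libraries left out, the log2 fold change ran from -0.54 to -0.39 at ZT4-8 and from -0.60 to -0.44 at ZT16-20.

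Cubn encodes cubilin, the receptor that works with megalin and amnionless (mm10, chromosome 2, 13276338 to 13491813, minus strand). Unlike its partner it was not called in any kidney comparison. In air at ZT4-8 it spread from 376 to 661 CPM, with B and D at 417 and 376 and A and C at 521 and 661. At 6% oxygen it lay within that range, at 459.6 to 525. At ZT16-20 it ran from 552 to 666 CPM in air and from 439 to 635 at 6% oxygen, so the groups overlapped. The log2 fold changes were 0.01 ± 0.15 and -0.17 ± 0.15. The difference between Lrp2 and Cubn in their responses was not tested. The noncoding gene Gm13270 overlaps Cubn on the other strand.

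Slc34a1 encodes NaPi-IIa, the main phosphate transporter of the brush border (mm10, chromosome 13, 55398187 to 55415592, plus strand). It stood at 5908, 6927, 4535 and 6927 CPM in air and at 6144, 4933, 6670.1 and 6404 at 6% oxygen at ZT4-8. At ZT16-20 it ran from 5276 to 6182 CPM in air and from 5371 to 6916 at 6% oxygen. The ranges overlapped at both times, and the log2 fold changes were -0.01 ± 0.14 and 0.13 ± 0.14. Slc5a2 encodes SGLT2, the bulk glucose transporter (mm10, chromosome 7, 128265657 to 128272430, plus strand). Its log2 fold changes were -0.08 ± 0.17 and -0.07 ± 0.17, and 1 library stood low, B at ZT4-8 in 6% oxygen, with 301 CPM against 557 to 650.1 in the other 3 libraries of its group. Library B of that group also had the lowest sum of proximal tubule markers of its group. Slc34a1 overlaps Pfn3, and Slc5a2 overlaps BC017158, both on the other strand.

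Slc22a6 and Slc22a8 encode the basolateral organic anion transporters OAT1 and OAT3, neighbours and close copies on chromosome 19 (mm10, 8618039 to 8628299 and 8591254 to 8611835, plus strand), and reads shared between them, which could make their values uncertain, were not measured. Slc22a6 stood at 71.0 to 77.4 CPM in air and 65.2 to 92.2 at 6% oxygen at ZT4-8, and at 69.5 to 75.8 and 52.1 to 72.3 at ZT16-20. The air libraries lay close together and the libraries at 6% oxygen spread more widely around or below them. Its log2 fold changes were 0.11 ± 0.13 and -0.19 ± 0.13. Slc22a8 was counted least, with 35 to 144 counts per library, and its log2 fold changes of -0.13 ± 0.30 and 0.33 ± 0.30 had the widest errors. Of Slc34a1, Slc5a2, Slc22a6, Slc22a8 and Cubn, 0 were called in the 5 kidney comparisons by edgeR or by DESeq2. The unadjusted p of edgeR was under 0.05 in 1 of these, Slc22a6 between the times at 6% oxygen (-0.31 ± 0.13, adjusted p = 0.352).

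In a list of 32 proximal tubule enzymes and transcription factors, of which 31 were tested, 0 were called at ZT4-8 by edgeR, and 2 rose and 3 fell at ZT16-20. Cyp24a1, which inactivates vitamin D, rose by 1.79 ± 0.28, from 62.2 ± 24.7 to 216 ± 54.9 CPM. Gatm, the first enzyme of creatine synthesis, fell by 0.91 ± 0.15 and the transcription factor gene Maf fell by 1.07 ± 0.20. The share of the list called at ZT16-20 was 16.1%, beside 6.9% of all genes, and its median log2 fold change was -0.02, beside 0.00 over all genes. In air, Cyp24a1 was lower at ZT16-20 than at ZT4-8 (-1.75 ± 0.28, adjusted p = 0.0033), but not called without the ZT4-8 air libraries B and D (-1.36, adjusted p = 0.0964), and at 6% oxygen the steroid-metabolising gene Akr1c21 was (-0.99 ± 0.20). The list's difference in response between times called 0 genes in edgeR. Keg1 had -0.28 at ZT4-8 (adjusted p = 0.328), and it was called there without the ZT4-8 air libraries B and D (-0.56, adjusted p = 0.0401).

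Other transport genes of the segment showed few calls. Of 56 such genes, 54 were tested, and at ZT4-8 1 rose and 3 fell (7.41% called, beside 5.28% of all genes). The lactate transporter gene Slc5a12 fell from 62.6 ± 10.9 to 36.2 ± 9.81 CPM (-0.79 ± 0.19, adjusted p = 0.0167), and the dicarboxylate transporter gene Slc13a2 (-0.67 ± 0.16) and the sulfate transporter gene Slc13a1 (-0.54 ± 0.15) fell too. The phospholipid flippase gene Atp11a rose by 0.54 ± 0.15. Without the ZT4-8 air libraries B and D, Slc5a12 was still called (-0.87, adjusted p = 0.0234), and Slc13a2 (-0.42, adjusted p = 0.296), Slc13a1 (-0.64, adjusted p = 0.0559) and Atp11a (0.41, adjusted p = 0.283) were not. At ZT16-20 0 rose and 2 fell (3.7% called, beside 6.9% of all genes), Slc5a12 again (-0.71 ± 0.19, adjusted p = 0.0256) and Slc17a3, a phosphate and organic anion transporter gene (-1.18 ± 0.25, adjusted p = 0.00451). The list's median was 0.08 at ZT4-8 and -0.15 at ZT16-20. In the difference between times 0 of 54 were called in edgeR, and between the times at 6% oxygen 1 was, the organic anion transporter gene Slco1a1 (-1.04 ± 0.22, adjusted p = 0.0447, and 0.0505 without the ZT4-8 air libraries B and D). Without those libraries Slc2a2 was also called at ZT16-20 (-0.50, adjusted p = 0.00508, against 0.0635 with them). So were, between the times at 6% oxygen, Slc2a2 (-0.54, adjusted p = 0.0177, against 0.173) and Slc26a1 (-0.63, adjusted p = 0.0318, against 0.1).

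**Figure D3:**
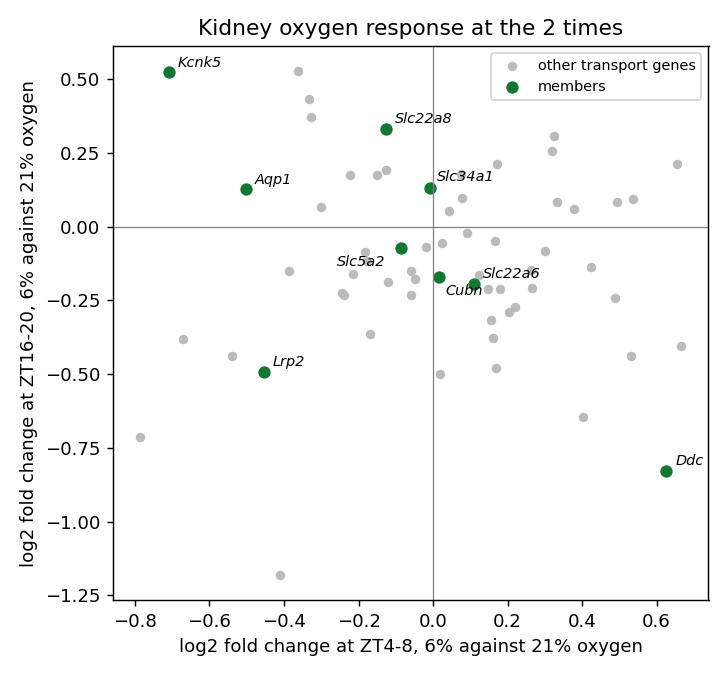
Log2 fold change at 6% against 21% oxygen in kidney at ZT4-8 (x axis) and ZT16-20 (y axis) for the 9 genes (green, named) and the other tested proximal tubule transport genes (grey). Kcnk5 lies at the upper left (-0.71, 0.52) and Ddc at the lower right (0.63, -0.83), and the grey points run from -0.79 to 0.67 on the x axis and from -1.18 to 0.53 on the y axis.

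The genes around Ddc in the dopamine pathway were not called with it. Of 18 genes of synthesis, breakdown, uptake and signalling, 9 were tested and 0 were called in edgeR in any of the 5 kidney comparisons. Maob, which oxidises dopamine, stood at -0.14 and -0.27. Genes of the dopamine receptors were not among the 9.

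Among other potassium channel genes, 1 was called for oxygen with all kidney libraries fitted. Of 20 listed for comparison 9 were tested, and 0 were called at ZT4-8 by edgeR. At ZT16-20 Kcnj8, which encodes the pore of ATP-sensitive channels in mural cells, rose from 13.7 ± 3.47 to 24.1 ± 4.17 CPM (0.82 ± 0.20, adjusted p = 0.0169). Kcnk1, of the same K2P channel family as Kcnk5, had -0.19 at ZT4-8 (adjusted p = 0.502) and 0.46 at ZT16-20 (adjusted p = 0.0501), and its difference in response between the times was 0.65 (adjusted p = 0.229). Without the ZT4-8 air libraries B and D, Kcnk1 was called at ZT16-20 (0.46, adjusted p = 0.0417). At 6% oxygen Kcnk1 was higher at ZT16-20 than at ZT4-8 by 0.63 ± 0.14 (adjusted p = 0.0457).

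Partners that traffic and anchor these transporters were a mixed group. Of 17 tested, 2 rose at each time (11.8% called, beside 5.28% of all genes at ZT4-8 and 6.9% at ZT16-20) and 0 fell. Sgk1, a kinase that raises the surface level of several transporters and channels, rose from 134 ± 29.1 to 459 ± 79.9 CPM at ZT4-8 (1.78 ± 0.25) and from 302 ± 143 to 907 ± 116 at ZT16-20 (1.59 ± 0.25). Ezr, which encodes the brush border linker ezrin, rose by 0.40 ± 0.10 and 0.51 ± 0.10. Dab2, an adaptor for megalin uptake, was lower in air at ZT16-20 than at ZT4-8 (-0.61 ± 0.14, adjusted p = 0.0412), and Sgk1 was higher (1.17 ± 0.25, adjusted p = 0.0307). Without the ZT4-8 air libraries B and D, Ezr at ZT4-8 (0.35, adjusted p = 0.178) and, between the times in air, Dab2 (-0.36, adjusted p = 0.506) and Sgk1 (0.94, adjusted p = 0.418) were not called, while Sgk1 at ZT4-8 was (1.54, adjusted p = 0.022). Amn, which encodes the amnionless partner of cubilin, was not called for oxygen (-0.15 and -0.23). Of 7 tested injury markers 0 were called for oxygen at either time in edgeR, and Spp1 (osteopontin) was higher at ZT16-20 in air (0.87 ± 0.18, adjusted p = 0.0146, and 0.243 without those libraries). The injury marker Lcn2 had 1.34 at ZT16-20 for oxygen (adjusted p = 0.0506), and it was called without those libraries (1.34, adjusted p = 0.0403).

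Genes whose levels followed the called genes most closely over the 16 kidney libraries were taken from 7601 candidates, as a description that shares libraries, depth and groups with the comparisons. Nearest to Kcnk5 were Snw1 (Pearson r = 0.82), Prss8, a channel-activating protease gene (0.79), and Chchd5 (0.79). Nearest to Ddc were Uqcrc2, a subunit of respiratory complex III (0.90), Tril (0.88) and Bfar (0.86). For Aqp1 they were Prnp (0.89), the chaperone gene Hspa8 (0.84) and Igfbp4 (0.81), and for Lrp2 they were Cpne1 (0.94), Ube2b (0.93) and Ggnbp2os (0.92).

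Lung and liver of the same mice were compared for the 3 genes that could be tested in all of these tissues, Kcnk5, Ddc and Aqp1. Kcnk5 and Aqp1 rose in lung at both times, Kcnk5 and Aqp1 rose in liver at ZT16-20, and Ddc rose in liver at ZT4-8. The fall of Kcnk5 and of Aqp1 in kidney at ZT4-8 had no counterpart there. Levels were scaled within each tissue's table, so only changes are compared across tissues.

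In lung, Kcnk5 stood at 9.45, 7.73, 11.1 and 7.33 CPM in air and at 31.5, 16.4, 17.7 and 16.1 at 6% oxygen at ZT4-8. All 4 libraries at 6% oxygen lay above the air group, A farthest. It rose by 1.17 ± 0.23 (adjusted p = 0.000492) at ZT4-8, where 22.6% of all 12150 genes were called, and by 0.89 ± 0.24 (adjusted p = 0.00908) at ZT16-20, where 21.1% were. Aqp1 rose in lung by 0.40 ± 0.11 (adjusted p = 0.0107) and 0.34 ± 0.11 (adjusted p = 0.0319). The second call was lost without air library A (adjusted p = 0.0775) or B (0.0563), or 6% library A (0.0548) or B (0.106). Ddc and Lrp2 were low in lung, with means of 3.79 to 5.61 and 10.6 to 18.03 CPM, and were not called.

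The response of Kcnk5 at ZT4-8 was lower in kidney than in lung (log2 difference -1.89 ± 0.30, edgeR with the replicate letter taken as the mouse and as a block, adjusted p = 7.5e-05), and so was that of Aqp1 (-0.93 ± 0.17, adjusted p = 0.00041), where 3.66% of 10649 genes were called. Both held with each replicate letter of a group left out in all tissues, at -2.03 to -1.57 and -1.08 to -0.86, and without the block. They also held without the kidney ZT4-8 air libraries B and D, at -1.89 (adjusted p = 0.0011) and -0.89 (adjusted p = 0.00952). At ZT16-20, where 1.79% of all genes were called, neither was called (Kcnk5 -0.45 ± 0.31, adjusted p = 0.59, and Aqp1 -0.27 ± 0.17, adjusted p = 0.534). Ddc was not called at either time (0.04 ± 0.42 and -0.68 ± 0.38).

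In liver, Ddc had a wide range by time and oxygen. At ZT4-8 it stood at 11.6, 18.1, 30.7 and 9.67 CPM in air and at 75.1, 81.4, 60.3 and 99.4 at 6% oxygen. At ZT16-20 it stood at 54.2, 51.7, 73.8 and 58.1 CPM in air and at 71.7, 65.8, 56.1 and 77.7 at 6% oxygen. The air group at ZT4-8 was thus low and the other 3 groups overlapped. Ddc rose by 2.20 ± 0.27 (adjusted p = 2.21e-05) at ZT4-8, where 9.64% of 9451 genes were called, and had 0.19 ± 0.25 (adjusted p = 0.642) at ZT16-20, where 20.3% were. The difference between the times was -2.02 ± 0.36 (adjusted p = 0.00492), in a comparison that called 2.06% of all genes. In air, Ddc was higher at ZT16-20 than at ZT4-8 by 1.80 ± 0.27 (adjusted p = 0.000513), where 5.91% were called.

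Kcnk5 in liver went from 25.0, 24.4, 25.4 and 33.5 CPM in air to 33.98, 25.2, 42.9 and 48.05 at 6% oxygen at ZT4-8, with overlapping groups and no call (0.47 ± 0.21, adjusted p = 0.171). At ZT16-20 it went from 18.9, 20.2, 26.1 and 19.7 to 41.6, 54.2, 63.8 and 31.5 CPM without overlap and rose by 1.16 ± 0.21 (adjusted p = 0.000476). Aqp1 had 0.24 ± 0.15 (adjusted p = 0.354) and 0.50 ± 0.15 (adjusted p = 0.0179), and the latter call was lost without air library B (0.052) or D (0.0589), or 6% library A (0.0504) or B (0.0547). Kidney minus liver, the response at ZT4-8 was lower in kidney for Kcnk5 (-1.16 ± 0.27, adjusted p = 0.00785), Aqp1 (-0.75 ± 0.17, adjusted p = 0.00661) and Ddc (-1.62 ± 0.26, adjusted p = 7.02e-05), where 3.4% of all genes were called. Without the kidney ZT4-8 air libraries B and D, Ddc was still called (-1.76, adjusted p = 0.000329), and Kcnk5 (-1.16, adjusted p = 0.0622) and Aqp1 (-0.70, adjusted p = 0.0789) were not. At ZT16-20, where 3.23% were called, it was lower for Ddc (-1.03 ± 0.25, adjusted p = 0.0127). Without the libraries lettered D of the 6% group, Ddc was not called (-0.93, adjusted p = 0.052) and Kcnk5 was (-0.96, adjusted p = 0.0397, against -0.67 and 0.195 with it).

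**Figure D4:**
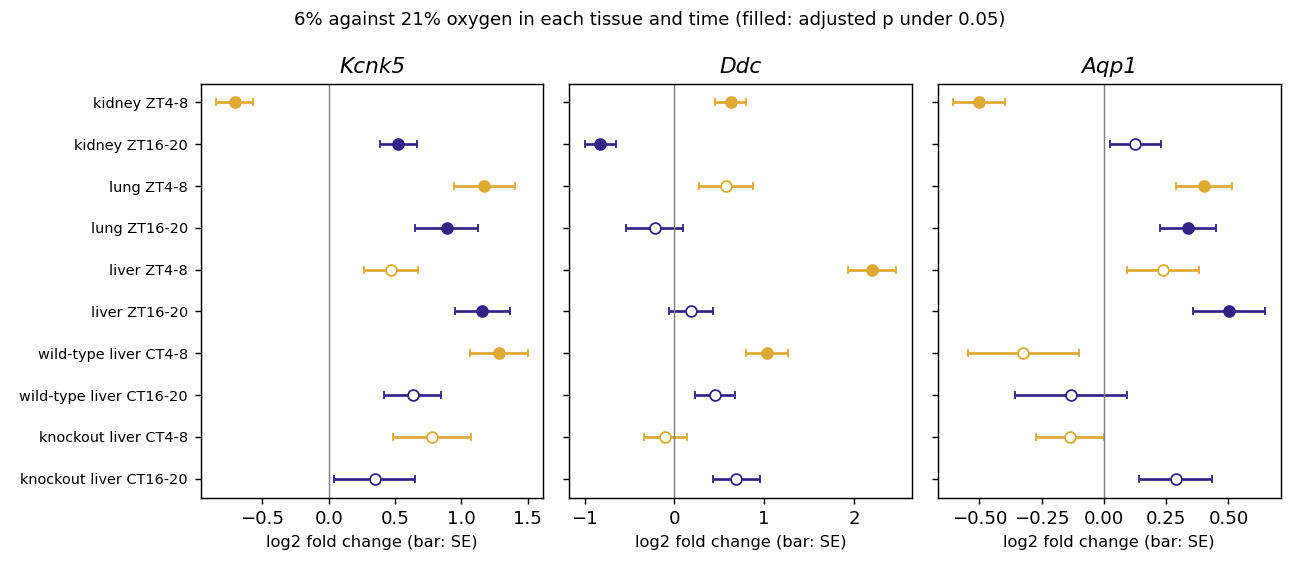
Log2 fold change at 6% against 21% oxygen (x axis, bar = SE) of Kcnk5, Ddc and Aqp1 in kidney, lung and liver of the light-dark mice and in liver of wild-type mice and mice labelled knockout in constant darkness, at ZT or CT4-8 (yellow) and ZT or CT16-20 (dark blue). Filled points have an adjusted p under 0.05, and groups hold 4 libraries, except 3 for knockout at CT16-20 in 6% oxygen. Of the 10 values of Kcnk5, the one of kidney at ZT4-8, -0.71, is the only one below 0.

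In constant darkness, liver of WT mice gave a rise of Kcnk5 at CT4-8 from 83.9, 50.7, 35.7 and 32.8 to 103, 115, 131 and 138 CPM (1.28 ± 0.22, adjusted p = 0.000385), where 11.8% of 8507 genes were called. Ddc rose as well (1.03 ± 0.24, adjusted p = 0.00636), from 26.8, 26.0, 37.5 and 30.4 to 87.0, 52.4, 56.8 and 52.0 CPM, without overlap. At CT16-20, where 9.83% were called, Kcnk5 had 0.64 ± 0.22 (adjusted p = 0.0658) and was called without the CT4-8 air library A (0.00376) or D (0.0481), while Ddc had 0.45 ± 0.23 (adjusted p = 0.235). In libraries labelled KO, Kcnk5 had 0.78 ± 0.29 (adjusted p = 0.15) and 0.35 ± 0.30 (adjusted p = 0.605) and Ddc -0.10 ± 0.24 and 0.69 ± 0.26 (adjusted p = 0.144), and 0 of 3 genes were called by edgeR at either time, where 5.59% and 4.51% of 8520 genes were. The unadjusted p was under 0.05 for Kcnk5 at CT4-8 (0.0177) and Ddc at CT16-20 (0.0146). The difference between the genotypes was not tested here. Per1 overlapped between the labels in air (at CT4-8 KO 20.2 to 35.3 CPM, WT 16.5 to 38.4, and at CT16-20 KO 24.0 to 36.3, WT 33.2 to 55.2). At 6% oxygen it lay lower in KO, at 14.9 to 21.2 CPM against 44.9 to 84.7 at CT4-8 and 15.7 to 31.3 against 61.5 to 76.7 at CT16-20. Per2 overlapped in air (4.88 to 11.4 and 5.36 to 9.93 CPM at CT4-8, 4.62 to 11.4 and 10.2 to 17.4 at CT16-20) and at 6% oxygen at CT16-20 (20.2 to 32.1 and 7.90 to 29.1), and at CT4-8 at 6% oxygen it lay higher in KO (19.0 to 30.9 against 2.92 to 10.8). The WT and KO tables were scaled separately, and counts outside the deleted part, which the labels do not give, check nothing, so genotype is used as labelled.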

How the data were processed

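Raw counts per gene symbol were used as deposited by the authors, 1 table for each of kidney, lung and liver in light-dark mice and for WT and KO liver in constant darkness. Tools named, per the submitters' processing notes, are STAR, HTSeq, cutadapt and bcl2fastq, with build mm10. Tool versions, gene annotation and whether counting used strand are not given in the sources consulted. Per the labels' protocols, snap-frozen tissue gave total RNA, libraries were balanced by actin quantitative PCR, and pooled cDNA was amplified by in vitro transcription. Listed genes reached at least 6 counts in some library of each table. 0 per-sample columns were left unused.

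edgeR 4.0.16 in R 4.3.3 tested the counts: filterByExpr (minimum count 10, minimum total 15), TMM scaling, the quasi-likelihood test with robust dispersion, and Benjamini-Hochberg adjustment over all genes tested, called under 0.05. Each table was fitted once over its 4 groups. Kidney, lung and liver were fitted jointly, blocking on mouse and taking the replicate letter within a group to mark a mouse, which the labels do not state. Deviations from the group means of the same letter correlated by -0.08 to 0.24 between kidney and lung (3 of 16 over 0.1) and by -0.08 to 0.19 between kidney and liver (2 of 16), so the data do not show that letters mark mice, and no call of these genes changed without the block. Replicates are separate mice per the labels. Of 24 pairs of kidney libraries within groups 0 were identical. The edgeR fit of a count table was tried on simulated data. That trial did not extend to every fit and test used here.

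The genes, lists, tests and alternatives were chosen with earlier results of these data known. Named genes were all 10, up to 4 called genes per list and comparison by smallest p, and the 3 genes of at least 10 mean CPM best correlated (log2 CPM, prior count 2) with each called gene. Others named (Maob, Kcnk1, Amn) were picked by role after their values were seen. Lcn2, Keg1, Slc2a2 and Slc26a1 were named for calls gained without the ZT4-8 air libraries B and D of kidney. Some called genes of the gene and marker lists and 1 searched motif are not reported here. Alternatives were RLE scaling, no filter, DESeq2 1.42.0, a replicate block, only the libraries compared, and each library or, in the joint fit, each letter of a group left out. Fits without the ZT4-8 air libraries B and D of kidney, or 3 lung air libraries, and all liver comparisons were added after seeing the data.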

Additional observations from a re-analysis of the deposited data

Results flagged for a closer look

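The response to oxygen differed between the times in kidney for Kcnk5 (1.23 on the log2 scale, ZT16-20 minus ZT4-8) and Ddc (-1.45), and in liver for Ddc (-2.02), each by the test of the difference itself. Between tissues at ZT4-8, kidney minus lung differed for Kcnk5 (-1.89) and Aqp1 (-0.93), and kidney minus liver for Kcnk5 (-1.16), Aqp1 (-0.75) and Ddc (-1.62), the first 2 of which were not called without the kidney ZT4-8 air libraries B and D. At ZT16-20 kidney minus liver differed for Ddc (-1.03). This was not called without the libraries lettered D of the ZT16-20 6% group (-0.93, edgeR adjusted p = 0.052).

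Each tested gene was examined in each group of 4, which gave 85 pairings of gene and group. Chance gives about 1 in 20, but the pairings share libraries and are not independent. Single libraries stood far from the other 3 of their group in 9 of the 85. In kidney these were library A at ZT16-20 in 6% oxygen, high for both Lrp2 (515 CPM) and Ddc (67.2 CPM), and library C in air at ZT16-20 for Kcnk5 (112 CPM, high). In lung it was library A at ZT4-8 in 6% oxygen for Kcnk5 (31.5 CPM, high), and in light-dark liver library D in air at ZT4-8 for Kcnk5 (33.5 CPM, high). In WT liver they were library A in air at CT4-8 for Aqp1 (199 CPM, high), and library A at CT4-8 in 6% oxygen (87.0 CPM, high) and library D at CT16-20 in 6% oxygen (42.1 CPM, low) for Ddc. In KO liver it was library A in air at CT4-8 for Aqp1 (90.2 CPM, low).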

How the results depend on the processing

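The difference in response between the times kept its call for Kcnk5 and Ddc under RLE scaling, no filter, DESeq2, the replicate block, without the ZT4-8 air libraries B and D, and with each kidney library left out. No called value of the genes described changed its sign under any setting run. All sign changes, 55 over 25 of 89 values, were of values not called. RLE scaling moved no median over all genes by over 0.1. The limits are 4 mice per group, the spread of the ZT4-8 air libraries, and low counts of Slc22a8, down to 35 in a library.

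Genes called at ZT4-8 in kidney numbered 264 with only the libraries compared (2 of the 9 genes described, Lrp2 lost with adjusted p = 0.102 and Ddc with 0.131) and 286 without air libraries B and D (1 of the 9). They ran from 342 (without air B) to 1017 (without air C) with 1 library left out, of the 9 genes 2 to 4, and at ZT16-20 1 to 3. The difference between times called 88 genes with DESeq2 and 23 (without ZT16-20 air D) to 155 (without ZT4-8 air C) with 1 library left out. In air, the times gave 219 genes with DESeq2, 50 with only the libraries compared, 47 without B and D, and 57 to 372 with 1 left out. At 6% oxygen they gave 145 with DESeq2, 113 without B and D, and 21 to 94, and of the 9 genes 2 were called with RLE, DESeq2 or without B and D and 0 to 2 with 1 left out. With 1 letter of a group left out, kidney minus lung gave 204 to 458 genes at ZT4-8 and 116 to 209 at ZT16-20, and kidney minus liver gave 226 (without ZT4-8 air D) to 634 (without ZT4-8 air C) at ZT4-8. Without the kidney ZT4-8 air libraries B and D these were 176 (kidney minus lung) and 147 (kidney minus liver, 1 of 3 genes) at ZT4-8. With 1 liver library left out, counts fell to 346 for the times in air (without ZT4-8 air A), 615 in WT at CT4-8 (without 6% C), 287 in KO at CT4-8 (without 6% C) and 167 in KO at CT16-20 (without 6% A), and reached 1358 in WT at CT16-20 (without CT4-8 air A). Of 4 lung genes 1 to 2, of 3 liver genes 1 to 2, both at ZT16-20, and of 3 WT liver genes at CT16-20 0 to 1 were called with 1 library left out. The cause was not tested.

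Between kidney libraries of the same letter in different groups, the correlations of deviations ran from -0.25 to 0.17, with 3 of 24 over 0.1. They do not show that letters pair libraries across groups. Low correlations cannot settle this, as they were also low between tissues taken as 1 mouse (median 0.05 for lung and for liver). With the replicate block, the difference between times called 20 genes, Slc34a1 at ZT4-8 had 0.00040, and no call of the 9 genes in kidney, or of those tested in lung and liver, changed.

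Without the ZT4-8 air libraries B and D, sign changes gave at ZT4-8 Slc34a1 0.21, Slc5a2 0.080 and Cubn -0.25, between the responses Slc34a1 -0.077, Slc5a2 -0.15 and Cubn 0.078, and in air Slc34a1 0.13 and Cubn -0.0068. With 1 library left out, sign changes lay in these ranges. At ZT4-8 they were -0.13 to 0.081 (Slc34a1), -0.20 to 0.11 (Slc5a2), -0.39 to 0.088 (Slc22a8) and -0.096 to 0.19 (Cubn), and at ZT16-20 -0.020 to 0.51 (Slc22a8). Between the responses they were -0.19 to 0.13 (Slc5a2) and -0.15 to 0.042 (Lrp2). In air they were -0.064 to 0.093 (Slc5a2), -0.030 to 0.017 (Slc22a6) and -0.27 to 0.050 (Slc22a8). Between the times at 6% oxygen they were -0.030 to 0.12 (Slc34a1), -0.16 to 0.15 (Slc5a2), -0.014 to 0.61 (Slc22a8) and -0.034 to 0.15 (Cubn). In lung at ZT16-20 they were -0.53 to 0.045 (Lrp2) and -0.49 to 0.017 (Ddc), and for Ddc in kidney minus lung at ZT4-8 -0.083 to 0.20, with -0.096 without the kidney air libraries B and D. In liver they were -0.13 to 0.047 for Aqp1 between the times in air, in WT liver -0.44 to 0.033 and -0.22 to 0.026 for Aqp1 at CT4-8 and CT16-20, and in KO liver -0.33 to 0.082 for Ddc at CT4-8.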

Other observations

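Counts of Slc34a1 also appeared in most libraries of lung and light-dark liver, mostly low. Slc34a1 reached 72 counts in liver library D in air at ZT16-20, beside 7 counts of Slc5a2 and 6 of Cubn there. In liver library B at ZT16-20 in 6% oxygen Slc34a1 had 19 counts. It reached 18 counts in KO liver library C at CT16-20 in 6% oxygen, where the other KO libraries were listed at 0, and at most 26 counts in lung.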
